A study of Mus musculus with 4 samples.

Results

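The regions described here were more open in Th2 cells than in other effector cells and in Treg cells, and appeared in none of the lists that involve naive cells. Intervals of 6 deposited lists of differentially accessible regions, 1 list for each pair of 4 T helper populations, sharing 1 bp or more were chained into merged regions, and a merged region was taken when its intervals came from exactly 2 lists, other effector versus Th2 and Treg versus Th2. This gave 2015 of 52537 merged regions, or 3.84%. The same lists chose the regions, so their folds are given as a description and no test was made on them. Absence from the lists with naive cells does not show that Th2 and naive cells were alike at these positions. By the same rule naive cells were not separated from other effector or Treg cells there either.

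Chromatin accessibility was measured by ATAC-seq, in which a transposase cuts open DNA, in a mouse asthma model that uses house dust mite (HDM) as the allergen for both sensitization and challenge. Cells were taken at day 15, and 1000 cells of each of the 4 populations were sorted, in 3 biological replicates. Th2 cells were CD3+ CD4+ CD44+ ST2+ CD30L+, other effector cells (memory cells other than Th2) were CD3+ CD4+ CD44+ ST2- CD30L+, and Treg cells were CD3+ CD4+ CD25hi CD30L-, all from lung with airways. Naive cells were CD3+ CD4+ CD44lo CD62Lhi and came from mLN, an abbreviation the labels do not spell out, so naive and lung cells also differ in tissue. The sources used here do not name the strain, age or sex of the mice. Each fold is the authors' own log2 value from the authors' deposited table, without replicate values, counts or p-values, so the sequencing depth is unknown and folds carry no error. Exact 95% binomial intervals on shares count regions rather than replicates and cover only counting error. A region shows a ratio of read signal in a sorted population and cannot tell a change in every cell from a change in the share of cells.

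Th2 cells are the helper cells of allergic inflammation, defined by the factor Gata3 and the cytokines Il4, Il5 and Il13. Open regions of T cell chromatin are promoters and, more often, distal elements that bind factors such as Runx, AP-1, ETS and NFAT proteins. Many of these elements open on activation or on entry into tissue, whereas others are already open in resting cells.

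The promoters below show what such regions contain. They are the 250 bases before the annotated start (RefSeq, GRCm38.p6) of the 3 genes with the most negative Treg minus Th2 folds on a promoter, of Nlrp3, chosen after its values were seen, and of Cd36 and Il12rb2, the genes of the lists described further on that had a region on their own promoter window. Each runs 5′ to 3′ on the strand of the gene, and capitals mark matches to any of 11 motifs, searched on both strands.
Trim45: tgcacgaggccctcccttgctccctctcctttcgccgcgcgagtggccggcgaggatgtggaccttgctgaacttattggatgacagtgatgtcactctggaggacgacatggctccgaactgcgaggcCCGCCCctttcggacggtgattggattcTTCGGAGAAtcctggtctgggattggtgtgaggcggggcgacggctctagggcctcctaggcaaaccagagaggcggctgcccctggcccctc
Rxylt1: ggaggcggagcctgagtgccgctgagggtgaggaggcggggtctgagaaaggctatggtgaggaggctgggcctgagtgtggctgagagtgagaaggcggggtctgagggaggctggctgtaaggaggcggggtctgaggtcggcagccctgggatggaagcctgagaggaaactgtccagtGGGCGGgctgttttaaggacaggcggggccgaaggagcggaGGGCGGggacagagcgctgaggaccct
Golim4: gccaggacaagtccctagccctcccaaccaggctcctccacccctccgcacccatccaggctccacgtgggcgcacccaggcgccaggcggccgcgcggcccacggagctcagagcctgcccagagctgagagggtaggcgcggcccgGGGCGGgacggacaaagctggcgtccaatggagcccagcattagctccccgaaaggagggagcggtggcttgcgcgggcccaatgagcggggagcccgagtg
Nlrp3: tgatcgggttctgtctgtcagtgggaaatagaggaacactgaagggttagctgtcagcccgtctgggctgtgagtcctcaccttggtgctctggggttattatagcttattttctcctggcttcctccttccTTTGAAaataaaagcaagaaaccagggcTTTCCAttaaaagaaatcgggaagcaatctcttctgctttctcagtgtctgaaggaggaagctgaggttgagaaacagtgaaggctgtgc
Cd36: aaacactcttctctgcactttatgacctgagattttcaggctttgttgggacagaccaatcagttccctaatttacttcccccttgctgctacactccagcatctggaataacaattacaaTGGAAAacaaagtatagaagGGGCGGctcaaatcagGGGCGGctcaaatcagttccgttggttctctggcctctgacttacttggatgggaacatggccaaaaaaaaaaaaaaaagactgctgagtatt
Il12rb2: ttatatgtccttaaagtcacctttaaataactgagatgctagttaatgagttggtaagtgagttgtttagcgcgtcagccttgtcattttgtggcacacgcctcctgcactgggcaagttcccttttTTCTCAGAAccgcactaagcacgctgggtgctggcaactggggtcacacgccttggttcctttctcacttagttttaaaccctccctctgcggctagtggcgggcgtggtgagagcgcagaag

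Trim45, a ubiquitin ligase gene, was printed from chr3:100922243-100922492 on the plus strand, inside a region whose folds were -8.41 for other effector minus Th2 and -8.41 for Treg minus Th2. Rxylt1, a glycosyltransferase gene, was printed from chr10:122097171-122097420 on the minus strand, with folds of -8.32 and -8.33. Golim4, which encodes a Golgi membrane protein, was printed from chr3:75956950-75957199 on the minus strand, with folds of -8.32 and -8.32. These 3 windows each hold a GC box, the sequence GGGCGG bound by SP and KLF proteins, once in Trim45 and Golim4 and at 2 places in Rxylt1, and Trim45 also holds 1 match to the STAT motif TTCNNNGAA. Nlrp3, which encodes an inflammasome sensor, was printed from chr11:59542436-59542685 on the plus strand, with folds of -7.49 and -7.13, and holds 1 match each to the NFAT motif TGGAAA and the TCF1 motif TTTGAA. Cd36, a fatty acid transporter and scavenger receptor, was printed from chr5:17835897-17836146 on the minus strand, of which 188 bases lay in a region with folds of -5.90 and -5.91. It holds 2 GC boxes and 1 NFAT match. Il12rb2, a receptor chain for IL-12, was printed from chr6:67376189-67376438 on the minus strand, with folds of -6.49 and -4.78, and holds 1 STAT match. In the first 3 promoters Treg and other effector cells lay equally far below Th2 cells, whereas at Il12rb2 Treg cells lay between Th2 and other effector cells.

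A promoter window (250 bases before to 50 after a start) was overlapped by 187 of the 2015 regions, or 9.28% (95% exact interval 8.05% to 10.6%), against 8.19% of the regions listed for Th2 against all 3 populations, 8.37% of those listed for Th2 against naive and other effector cells and 17.2% of all merged regions. The 187 regions overlapped 222 windows of 201 genes, 157 of them protein-coding. Some overlaps were small, such as 5 bases at Elmo2, so a motif in a window may lie outside the region. Some genes, such as Exoc1, had several windows that overlap one another, so windows are not independent. After Trim45, Rxylt1 and Golim4, the most negative Treg minus Th2 folds on a window were at Rasal2, Rap2b and Snx7 (-7.73, -7.67 and -7.67), Cyth1 (-7.60) and Gm31936 (-7.48), a gene outside the protein-coding set. Among the 222 windows the GC box was found in 50.9%, against 35.7% of all 32851 windows and 66.0% of the 11755 windows overlapped by any listed region. The AP-1 motif TGANTCA was found in 12.6%, against 7.81% of all and 4.97% of listed windows. The ETS motif CCGGAAGT was found in 9.01%, against 3.89% and 8.61%, the NFAT motif in 24.3%, against 21.4% and 15.9%, and the STAT motif in 9.91%, against 8.30% and 6.51%. The motif AGATAA of GATA factors was found in 9.01%, against 11.2% and 5.67%, RUNX (TGTGGT) in 13.5%, against 16.8% and 12.4%, TCF1 in 11.7%, against 17.9% and 11.1%, and NF-kB in 1.80%, against 1.63% and 1.93%. The PPAR direct repeat and the BATF-IRF composite were found in 0 of the 222 windows, and in 0.0396% and 0.131% of all windows. The BATF-IRF composite contains the AP-1 motif, so the pair is not independent. Windows were searched and not whole regions, and a match is a description of letters only.

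All 2015 regions had Th2 as the higher population in both lists, and the lists largely fix this direction. All 28175 intervals of other effector versus Th2 had Th2 higher, and all 3532 merged regions with Th2 above Treg cells were also in that list. Of all merged regions, 53.2% were listed with Th2 above other effector cells, 6.72% with Th2 above and 3.34% with Treg above in Treg versus Th2, and nothing is read from the members' count against these. Every region rested on 1 interval per list, and the 2 intervals were identical in all 2015. The fold of other effector minus Th2 had a median of -5.65 and ran from -8.96 to -4.27, and that of Treg minus Th2 had a median of -5.38 and ran from -8.96 to -4.02. Both lists share the Th2 libraries. The weakest folds of the whole lists were 3.46 and 3.95 in size, and no source used here gives the authors' threshold. The weakest members in Treg minus Th2 were at Gfi1 (-4.02) and Wasf2 (-4.03). The weakest regions with Th2 above Treg cells outside the set were at Tmem250-ps (-4.10), Patl2 (-4.11) and Memo1 (-4.14), each of which also had an interval in a list with naive cells.

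In 1551 of the 2015 regions (77.0%) the 2 folds were the same to within 0.01, so that Treg and other effector cells had the same value on the authors' scale. In the other 464 (23.0%) Treg cells lay above other effector cells, by 0.35 to 3.56 with a median of 0.89, and in 0 regions did Treg cells lie below by more than 0.01. Across the series, all 24765 intervals of other effector versus Treg cells had Treg higher, so nothing is read from this 0. The differences did not spread evenly. No region lay between 0.01 and 0.35, and above that they gathered at a few values, with 92 regions at 0.35 to 0.37, 19 at 0.50 or 0.51, 68 at 0.64 to 0.67 and 70 at 0.87 to 0.91. Differences over 1 were found in 211 regions and over 2 in 57. Where Treg and other effector cells were equal, the median of both folds was -5.51, and where Treg cells lay above, the medians were -6.12 for other effector minus Th2 and -4.94 for Treg minus Th2. Whether the shared values reflect a floor in the authors' scale was not tested.

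**Figure D1:**
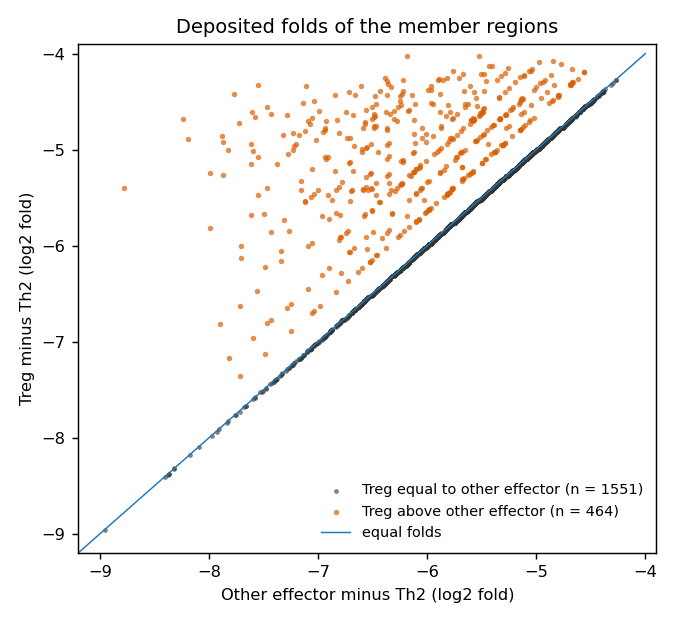
Each point is 1 of the 2015 regions, with other effector minus Th2 on the horizontal and Treg minus Th2 on the vertical axis (authors' log2 folds), and the line marks equal folds. The 1551 dark points lie on the line and the 464 orange points lie above it, those nearest the line in bands parallel to it, and no point lies visibly below.

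**Figure D2:**
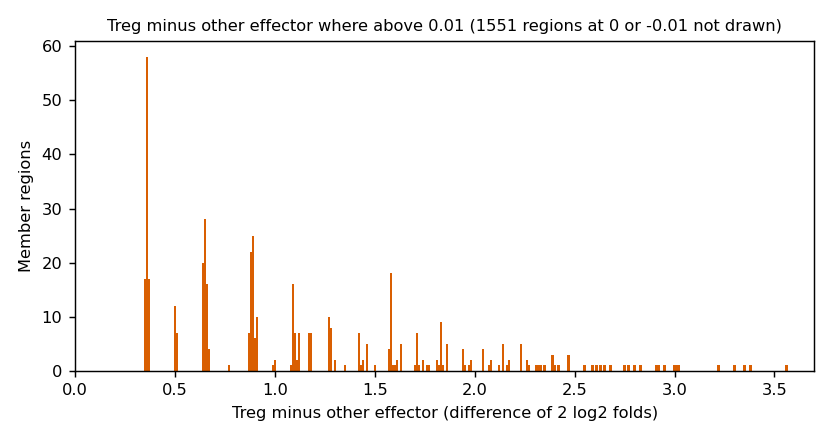
The bars count regions at each value of Treg minus other effector (difference of the log2 folds, in steps of 0.01), for the 464 regions above 0.01. The counts stand in separate peaks, the first at 0.35 to 0.37 with 92 regions.

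The regions listed for Th2 cells against all 3 other populations, 1257 in number, are shown beside them. Treg and other effector cells were equal in 73.5% of those and Treg cells lay above in 26.5%. Their median folds were -6.17 for other effector minus Th2 and -5.78 for Treg minus Th2. The difference between the sets was not tested.

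The width of the intervals moved with the absence of naive cells. Of the 2015 regions 513 (25.5%, 95% exact interval 23.6% to 27.4%) were exactly 150 bp wide, the narrowest width in the lists. In the 3 lists with naive cells 23 of 34132 intervals (0.0674%) had that width, and in the 3 lists without naive cells 4823 of 58240 (8.28%). The lists also used different intervals. Where 2 lists with naive cells met in a merged region, 10661 of 10661 intervals were identical, and where 2 lists without naive cells met, 17274 of 17488 (98.8%) were, but across these groups of lists 11379 of 23266 (48.9%) were. By pair of lists the last share ran from 7.23% to 79.6%. It was 77.9% for naive versus Th2 with other effector versus Th2, and 65.5% for naive versus Th2 with Treg versus Th2. No source used here says which intervals were tested against naive cells, so for a narrow region a missing test and a missing difference cannot be told apart.

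Of the 3532 merged regions with Th2 above both other effector and Treg cells, 2015 had no interval in a list with naive cells, 1262 were also listed in naive versus Th2, and 255 only in other lists with naive cells. By the width of the Treg versus Th2 interval, the share without naive cells was 91.4% (513 of 561) at 150 bp, 78.8% at 151 to 200 bp, 60.4% at 201 to 300 bp, 39.9% at 301 to 600 bp and 45.0% at 601 to 1909 bp. It also moved with the fold, from 65.3% (554 of 849) where Th2 minus Treg was 4 to 5, through 53.3% at 6 to 6.5, to 34.6% (84 of 243) at 7 to 9. Without the 150 bp intervals these shares were 57.4%, 47.8% and 33.8%. The share fell with each step of the fold, and with width up to 600 bp. The part of width in the set was not tested.

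**Figure D3:**
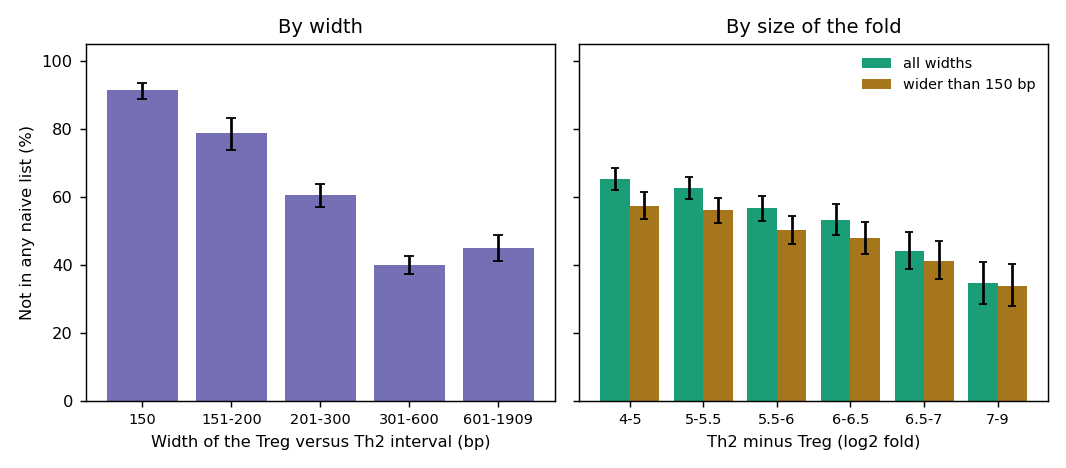
The bars give the share of the regions with Th2 above both other effector and Treg cells that had no interval in any list with naive cells, by interval width in bp (left) and by log2 fold of Th2 minus Treg (right), with exact 95% binomial intervals over regions. The share falls from 91.4% at 150 bp to 39.9% at 301 to 600 bp, and from 65.3% at folds of 4 to 5 to 34.6% at 7 to 9 for all widths (green) and from 57.4% to 33.8% for intervals wider than 150 bp (brown).

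In 147 of the 2015 regions (7.30%), 140 of them wider than 150 bp, the fold of other effector minus Th2 was at least 7.04 in size. Wherever naive cells lie on that scale, they are then at least 3.52 from Th2 or from other effector cells, and 3.52 is the weakest fold listed for naive versus other effector cells. This holds if all lists share 1 scale, and a listing also depends on the spread between replicates, which these lists do not hold. The strongest region lay 11947 bp from an end of Lgals3, which encodes the lectin galectin-3, at 47361464 to 47362363 of chromosome 14, with folds of -8.96 and -8.96. Next in Treg minus Th2 came Trim45 (-8.41), Hivep2 (-8.39), Kif1a and Bach2 (-8.38 each), Rxylt1 (-8.33) and Golim4 (-8.32). At all 7, Treg and other effector cells were equal to within 0.01.

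The regions were mostly distal. Their median width was 247 bp, against 497 bp for all merged regions, and 1095 (54.3%, 95% exact interval 52.1% to 56.5%) had their midpoint inside a protein-coding gene, against 55.2% of the regions listed for Th2 against all 3 populations, 53.7% of those listed for Th2 against naive and other effector cells and 60.2% of all merged regions. Within 1 kb of a gene end lay 232 (11.5%, 10.2% to 13.0%), against 21.9% of all merged regions, 9.94% of those listed for Th2 against all 3 populations and 10.7% of the 2090 listed for Th2 against naive and other effector cells. The regions with Treg above other effector cells were near a gene end in 14.2%, and those with both equal in 10.7%. Wider regions had more negative folds, with a median Treg minus Th2 of -5.19 at 150 bp and -5.82 at 601 to 1909 bp, while the share with Treg above other effector cells was 20.1% and 23.4%. Over the autosomes and chromosome X the share of merged regions that belonged to the set ran from 2.41% on chromosome 9 to 4.66% on chromosome 2.

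Regions were assigned to the protein-coding gene that held the midpoint or had the nearest end within 100 kb, which names a neighbour and not a target. They fell on 1474 genes, 1184 of them with 1 region, and 34 genes had 4 or more. Another region of the set lay within 10 kb of 316 of the 2015 (15.7%), a region with Th2 above naive cells within 10 kb of 421 (20.9%), and a region with naive above other effector cells within 10 kb of 556 (27.6%). Among regions listed for Th2 against all 3 populations these shares were 16.1%, 28.2% and 20.2%. Among those listed for Th2 against naive and other effector cells they were 7.42%, 27.8% and 17.7%. The shares were not computed over all merged regions, so nothing is read from their size. Of the 1474 genes, 687 (46.6%) had a separate region with Th2 above naive cells and 390 (26.5%) one with naive above Th2 cells, and 621 (42.1%) had no region in naive versus Th2 at all, against 21.2%, 18.4% and 65.3% of the 13866 genes with any listed region. A region with Treg above Th2 cells was at 191 of the 1474 (13.0%), against 8.85%. A gene with more listed regions is more likely to hold a region of any class, and the gene shares were not adjusted for this. Over all merged regions, 9.67% were listed with Th2 above naive cells and 9.21% with naive above Th2 cells.

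Runx1, a runt factor of T cell development and activation, had 7 regions of the set among its 36 merged regions. Their folds in Treg minus Th2 were -5.19, -6.09, -5.06, -5.39, -4.98, -5.53 and -7.14 in genome order, 5 of them inside the gene, and other effector cells equalled Treg cells at all 7. The strongest lay outside, at 92867163 to 92867962 of chromosome 16 and 41488 bp from the nearest gene end. Elsewhere at Runx1, 9 regions were listed with Th2 above naive cells and 1 with naive above Th2 cells. Runx3, a related runt factor, had 1 region of the set, with Treg minus Th2 of -7.02.

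Bach2 is a repressor that restrains effector differentiation. Its 6 regions all lay inside the gene, and 3 of them stood together at 32249806 to 32268394 of chromosome 4, with other effector minus Th2 of -8.37, -7.44 and -6.20. The other 3 had -6.76, -6.19 and -6.73, and at the last of these Treg cells lay 0.36 above other effector cells. Of the 67 merged regions of Bach2, 18 were listed with naive above Th2 cells, 50 with naive above other effector cells and 1 with Th2 above naive cells. In Treg versus Th2, 9 were listed with Th2 above and 2 with Treg above. Bach2 thus had separate regions that were higher in naive cells and regions that were higher in Th2 cells than in both other lung populations. These come from different comparisons and are not opposite signs of 1 comparison.

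Hivep2, the zinc finger factor Schnurri-2, had 6 regions, with other effector minus Th2 of -7.06, -6.81, -5.05, -8.38, -5.52 and -5.16 in genome order. Treg cells equalled other effector cells at 5 of them and lay 1.86 above at the first, which lay outside the gene. Its other regions included 6 with Th2 above naive and 3 with naive above Th2 cells. Hivep1 had 2 regions, both within 36279 bp of the nearest gene end, with Treg minus Th2 of -5.72 and -5.34.

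Irf2bp2, a transcriptional corepressor, had 7 regions, all outside genes, between 2434 and 94187 bp from the nearest gene end. Their other effector minus Th2 folds were -5.34, -6.80, -4.85, -6.67, -6.72, -6.37 and -4.55, and Treg cells lay above other effector cells at the fifth (by 0.65) and the sixth (by 1.27). Within 10 kb of a gene only 2 of the 7 would be counted. Zfp36l2, an RNA-binding protein that destabilises messenger RNAs, had 5 regions, all outside genes, with Treg minus Th2 of -4.63, -5.99, -6.57, -5.52 and -6.41, and 1 of the 5 lay within 10 kb. Treg cells lay above other effector cells at the first and the fourth, by 1.10 and 1.35. Tbc1d1, a regulator of Rab GTPases, had 6 regions with Treg minus Th2 of -4.22, -4.73, -5.32, -4.57, -4.64 and -7.09. At 3 of these Treg cells lay above other effector cells, by 0.89, 0.91 and 2.04.

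Cd36 had 4 regions of the set among 8 merged regions, all inside the gene, with Treg minus Th2 of -5.91, -6.79, -6.83 and -6.83 and other effector cells equal at each. All 8 regions of Cd36 were listed with Th2 above other effector cells, 5 with Th2 above Treg cells and 1 with Th2 above naive cells, and none with another population higher. Zfp608, Frmd4b, Tmc1 and Pip4k2a had 5 each. Cd36 and Lrrfip1 were taken from 24 genes tied at 4, by the larger median size of Treg minus Th2 and then by symbol. In Zfp608, Frmd4b, Tmc1, Pip4k2a and Lrrfip1 the Treg minus Th2 folds ran from -6.88 to -4.40. App, the amyloid precursor gene, had 4 regions, each 150 bp wide, with -6.69, -4.32, -5.47 and -4.82. All 4 of App, 3 of the 4 of Lrrfip1 and 2 of the 5 of Frmd4b, Tmc1 and Pip4k2a each were 150 bp wide, the width almost absent from the lists with naive cells.

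**Figure D4:**
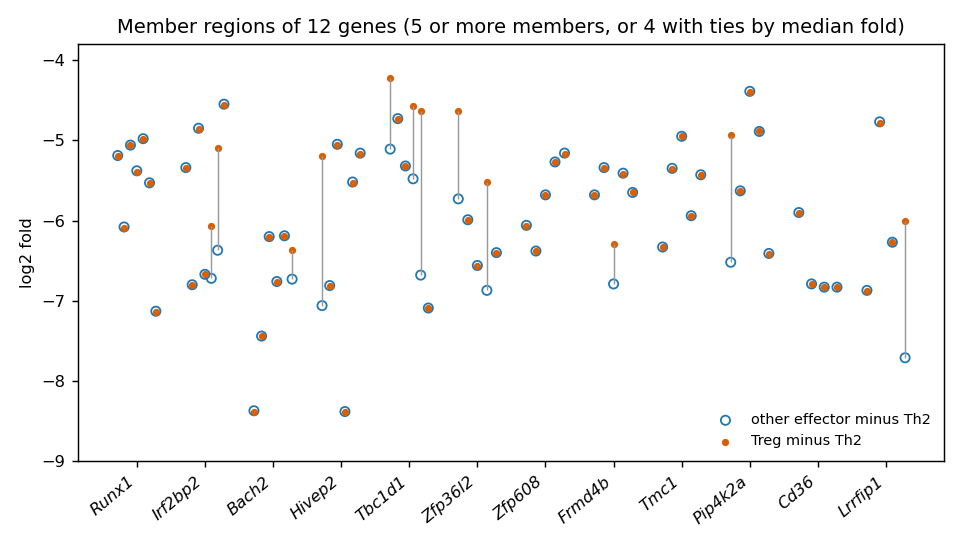
Each pair of marks joined by a line is 1 region of the 10 genes with 5 or more regions of the set, or of Cd36 and Lrrfip1, taken from 24 genes with 4 by their median fold and then by symbol, with other effector minus Th2 as open circles and Treg minus Th2 as filled points (authors' log2 folds, in genome order within a gene). At Runx1, Cd36, Zfp608 and Tmc1 the marks coincide for every region, while at Tbc1d1 Treg cells lie above other effector cells in 3 of 6.

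Lists of genes were compared with the 3.84% of all merged regions that belonged to the set. No enrichment test was made, and regions of 1 gene are not independent. Of the Th2 list, 6 of 222 regions (2.70%) belonged to the set, at 5 of 30 genes, with a median Treg minus Th2 of -5.60. This share is near the 3.84% of all merged regions. The rule also leaves out regions listed against naive cells, and 86 of the 222 were listed with Th2 above naive cells. Il4, Il5, Il13, Gata3 and Il1rl1, the last of which encodes the sort marker ST2, had 0 each. At these genes the listed differences were elsewhere: 5 of the 6 regions of Il13 and 11 of the 18 of Il1rl1 were listed with Th2 above naive cells, and none of the 11 of Gata3 was. The 6 regions were those of Nfil3 (-4.95 and -5.02 in Treg minus Th2), a basic leucine zipper factor, Epas1 (-7.35), a hypoxia-inducible factor, Bhlhe40 (-6.55), a factor of helper cell cytokine production, Il6 (-5.86), a cytokine gene, and Pparg, a nuclear receptor of lipid metabolism. At Il6 Treg cells lay 1.57 above other effector cells. The Epas1 region lay 217 bp from the nearest gene end, and those of Pparg and Nfil3 were 150 bp wide, without which 3 remain. Within 10 kb of a gene the list had 3.

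The Treg list had 4 of 215 regions (1.86%), at Entpd1, Nrp1 and Lrrc32, and Foxp3 and Il2ra had none. Entpd1, an ectonucleotidase, had 2 regions with Treg minus Th2 of -5.98 and -5.89. Nrp1, the receptor neuropilin-1, had 1 at -6.55, and Lrrc32, which presents latent TGF-beta, 1 at -4.92. All 4 had Treg and other effector cells equal. Elsewhere in that list 34 regions were listed with Treg above Th2 cells.

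The naive list had 9 of 463 regions (1.94%), 6 of them at Bach2, 2 at Foxp1 (-5.08 and -4.31 in Treg minus Th2) and 1 at Tcf7 (-5.13), while 162 of its regions were listed with naive above Th2 cells. Lef1 and Ccr7 had none in the set. Of the Th1 and Th17 list 3 of 129 regions (2.33%) belonged to it, among them Rora (-5.62) and Il12rb2 (-4.78), and the adhesion and tissue list had 2 of 152 (1.32%), at Cd69 (-5.43) and Itgav (-5.05).

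The list of Runx, zinc finger and forkhead factors had 22 of 315 regions (6.98%), at 10 of 18 genes, 13 of them at Runx1 and Hivep2. It also holds Elf1, an ETS factor, and no forkhead gene of it had a region of the set. Treg and other effector cells were equal at 18 of the 22, and the median Treg minus Th2 was -5.44. Without Runx1 and Hivep2, 9 of 247 regions (3.64%) belonged to the set, near the 3.84% of all merged regions, at Hivep1, Hivep3, Runx2, Runx3, Zeb1, Zeb2, Elf1 and Gfi1. The list of AP-1, NFAT and NF-kB factors had 15 of 250 (6.0%), at 11 of 27 genes. It is broader than its name and also holds Egr2, Egr3, Irf4, Nr4a2 and Tnfaip3, which belong to none of these 3 families. Fos, a subunit of AP-1, had 3 (-5.81, -4.69 and -6.07 in Treg minus Th2), Nfatc1 2 (-6.16 and -6.90), Batf3 2 (-5.26 and -6.72) and Fosb 1 (-6.77). Egr2, Egr3, Irf4, Nfkb1, Nr4a2, Rel and Tnfaip3 had 1 each, between -6.17 and -4.38. Only 7 of these 15 lay within 10 kb of the gene.

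The list of T cell receptor signalling genes had 6 of 322 regions (1.86%), 2 of them at Itpr1, the calcium channel of the endoplasmic reticulum (-6.12 and -5.58). Rasgrp1 and Orai1 had 1 each, with -6.78 and -6.67, as had Stim2. The list had 10 regions with identical intervals only and 3 within 10 kb of a gene. The TGF-beta list had 5 of 143 (3.50%), 2 at the receptor gene Tgfbr2 (-5.66 and -4.43) and 1 each at Tgfb1 (-7.08), Skil (-5.62) and Ski (-4.68).

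The lipid list had the highest share, 12 of 124 regions (9.68%) at 8 of 21 genes, 4 of them at Cd36. Without Cd36 it had 8 of 116 (6.90%). Treg and other effector cells were equal at all 12, and the median Treg minus Th2 was -6.02, against -5.38 over the whole set. Lipa, the lysosomal acid lipase, had 2 (-7.18 and -6.01). Cpt1a, which admits fatty acids to mitochondria, had 1 (-6.02). The fatty acid binding protein gene Fabp5, the lipid droplet coat gene Plin2, Pparg and Acsl1 had 1 each, between -5.98 and -5.21. Pparg is on both this list and the Th2 list. Cd36, Lipa and Plin2 are also used by macrophages, so the list does not belong to T cells alone.

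Markers of other cell types were counted beside these lists. The myeloid list had 3 of 56 regions in the set (5.36%), 1 each at Fcgr3 (-5.05 in Treg minus Th2), Cd14 (-4.69) and Cebpa (-4.63), and 42 of its 56 regions were listed with Th2 above other effector, 10 with Th2 above naive and 6 with Th2 above Treg cells. These are 75%, 17.9% and 10.7%, against 53.2%, 9.67% and 6.72% of all merged regions. Cebpb alone held 19 of the 56 regions, with 17 of the 42, 5 of the 10 and 1 of the 6, so the shares lean on 1 gene. By the rule the 3 regions of the set are among the 6. Of the defining genes Spi1, Csf1r, Itgam, Cebpb and Adgre1 had 0 in the set, and Lyz2 had no listed region. The B cell list had 0 of 29, the CD8 and natural killer list 0 of 18 and the epithelial list 0 of 10. With Th2 above other effector cells, 5, 2 and 6 regions of these 3 lists were listed. Cd3e had 0 of 5 listed regions with Th2 above other effector cells.

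**Figure D5:**
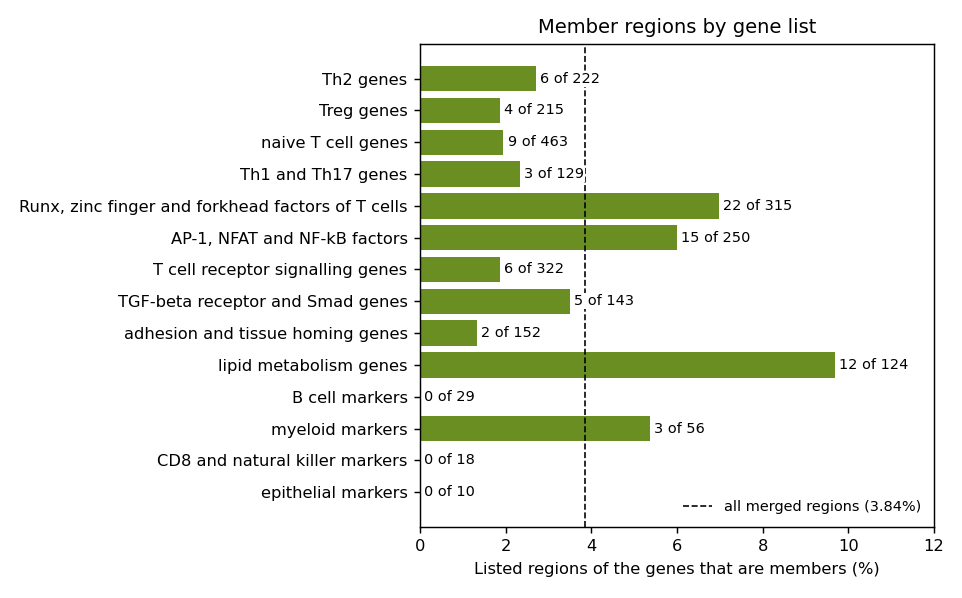
The bars give the share of the merged regions of each gene list that belong to the set, with the counts beside them, and the dashed line marks the 3.84% of all merged regions. The lipid list (9.68%) and the lists of Runx and zinc finger (6.98%) and AP-1, NFAT and NF-kB factors (6.0%) lie right of the line, as do the myeloid markers (5.36%), and the Th2, Treg and naive lists left of it.

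Where 3 or more regions of the set lay within 10 kb of one another, 26 clusters formed, 5 of them with 4 regions. Those with 4 included clusters next to Cd180, Dpys, Gm5820 and Gm6377. The Cd180 cluster, at 102689496 to 102695345 of chromosome 13, had Treg minus Th2 folds from -5.95 to -4.82. Clusters of 3 lay at Itgax (-5.52 to -4.78), Fcgr1 (-5.83 to -4.50), Nlrp3 (-7.13 to -4.83), Mitf (-5.61 to -5.05), Kif1a (-8.38 to -4.23), Nedd9 (-4.98 to -4.40) and Bach2. Several of these genes are known from myeloid cells: Cd180 encodes a receptor related to Toll-like receptors, Itgax the integrin CD11c, Fcgr1 a high-affinity Fc receptor and Nlrp3 an inflammasome sensor. They were singled out after their values were seen. All 8 listed regions of Nlrp3 and all 4 of Itgax were listed with Th2 above other effector cells, and none of these with Treg or naive above other effector cells. Over all merged regions 53.2% were listed with Th2 above other effector cells, and that list holds no interval in the other direction. Several of the other clusters named also had regions with naive or Treg above other effector cells. Such regions are not the reverse of Th2 above other effector cells. Fcgr1 had 4 of 9 listed regions with Th2 above, 4 with naive above and 3 with Treg above other effector cells. Mitf had 8 of 11 with Th2 above, 3 with naive above and 2 with Treg above, Cd180 had 6 of 7 with Th2 above and 1 with Treg above, and Nedd9 had 16 of 24 with Th2 above, 6 with naive above and 4 with Treg above. Kif1a had 4 of 6 with Th2 above, 1 with naive above and 1 with Treg above. All 24765 intervals of other effector versus Treg cells had Treg higher. The shares of all merged regions with naive or Treg above other effector cells were not computed, so nothing is read from these counts. The part of other cell types in the Th2 sort was not tested.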

How the data were processed

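ATAC-seq regions of 4 sorted populations were analysed from 6 lists, 1 per pair. The authors deposited a position and a log2 fold per interval. The folds came from DiffBind, per the submitters' processing notes. Those notes name build mm9 and no DiffBind version. For aligner, peak caller, scaling, threshold and depth: not given in the sources used here. Unshifted, 21.9% of merged regions on placed chromosomes were at most 1 kb from an end of a GRCm38.p6 gene, against 4.20% to 6.16% after shifts of 10 to 1000 kb, and unplaced sequences carry GRCm38 names, so coordinates are given as GRCm38, 1-based. Titles give day 15 for all populations, while some descriptions carry D10. The protocol and not the source label was followed for the tissue of naive cells.

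Folds were read as first-named minus second-named population. At the 3 intervals in all lists among Th2, Treg and other effector cells they added up with a largest residual of 0. The sign was checked on the Treg list (34 regions with Treg higher, 4 with Th2 higher) and the naive list (162 with naive higher, 10 with Th2 higher), so the direction of these lists is no independent evidence. Treg minus other effector is the difference of 2 folds on the same interval.

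Genes (21896 protein-coding) and promoter windows are RefSeq's. The gene table has no strand, exons or UTRs, so regions are placed only inside or outside a gene. All 231 list genes matched. Merging was tested on simulated lists. Python 3.11.15, pandas 2.3.3, scipy 1.17.1 and matplotlib 3.10.9 were used. No test was made, since the rule chose the regions on the same lists and the lists hold no replicate values. Named are the 12 genes with most regions (ties by median fold, then symbol), the 8 strongest and 3 weakest regions (some named genes are not reported here), values for up to 4 genes per list, up to 8 promoters by fold, and a fixed set of lineage genes. The regions and lists were chosen with earlier results of these data known. Alternatives were other merging rules, a fold minimum, other gene distances and, added after the data were seen, leaving out 150 bp regions.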

Additional observations from a re-analysis of the deposited data

How the results depend on the processing

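The 38 results were recomputed under 9 alternatives, giving 256 values, of which 222 stayed within 1.5 times the count or within the interval of the share or median, 34 moved and 0 reversed. A reversal meant a change of sign, which counts, shares and widths cannot show. The lists largely fix the sign of the median folds, so nothing is read from the 0. Requiring a larger overlap of the shorter interval, or leaving out unplaced sequences, moved none. With identical intervals only, the set had 2527 regions, the median other effector minus Th2 fold was -5.69, the median width 269 bp, and the T cell receptor and adhesion lists had 10 and 4 regions. Merging intervals within 200 bp gave a width of 261 bp, with 3 regions of the TGF-beta and 1 of the adhesion list. With a fold of at least 5 in size, the medians were -5.85 for other effector minus Th2 and -5.67 for Treg minus Th2, 84.5% of regions had Treg and other effector cells equal, 248 had Treg above, the width was 269 bp, 335 regions were 150 bp wide, and the Th1 and Th17 and TGF-beta lists had 1 and 3 regions. Here the alternative itself removes small folds. Within 10 kb of a gene, the Th2, AP-1, T cell receptor and adhesion lists had 3, 7, 3 and 1 regions. Near a gene end were 8.54% of regions with a narrower window and 24.8% with one of 5 kb, by construction. Leaving out 150 bp regions, chosen after seeing the data, gave medians of -5.76 and -5.44, a width of 309 bp, 3 regions of the Th2 list and 1 of the adhesion list. The cause of the other moves was not tested. No paired analysis was possible because the lists hold no replicate values. Depth is unknown.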
